A study of Mus musculus with 12 samples.

Results

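Mature products of the erythroid miR genes Mir144 and Mir451a, and of the Mir486 locus, were followed in fetal mouse liver. They give 5 entries of the miR-seq table, chosen by name: mmu-miR-144-3p, mmu-miR-144-5p, mmu-miR-451a, and the entries that combine mmu-miR-486a-5p with mmu-miR-486b-5p and mmu-miR-486a-3p with mmu-miR-486b-3p. They are written below without the species prefix, and the last 2 as miR-486-5p and miR-486-3p. The table lists 1927 entries, 682 of them had a count in at least 1 library, and 388 passed the filter on low counts. All 5 erythroid entries passed it, with 33 or more counts in each of the 12 libraries. The miR-486 entries combine miR-486a and miR-486b, whose reads the authors' counting did not separate.

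The livers came from female fetuses at embryonic day E18.5, with 1 small RNA library per fetus. There were 5 wild-type (WT) fetuses and 7 fetuses that inherited a deletion of Mir483 from the father (Mir483Pat-KO). Mir483 lies within the imprinted Igf2 gene and is read from the paternal copy. The deletion was made with Cre in C57BL/6N embryonic stem cells and is constitutive, the colony was kept by crossing to C57BL/6J, and the WT fetuses were littermates. The fetuses' litters are not given in the sources used here, so p-values measure the spread between these fetuses. Libraries held 658665 to 1211160 reads counted on miRs. The deletion showed in its own products: miR-483-3p stood at 1071 ± 103 CPM (CPM being counts scaled to the library total after TMM normalisation, with the SD over fetuses) in WT and 15.2 ± 10.8 CPM in Mir483Pat-KO.

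The fetal liver is a blood-forming organ, and late in gestation it still holds many maturing red cells beside its hepatocytes. miR-144 and miR-451a are cut from a shared primary transcript that the erythroid factor GATA1 switches on, and the hairpin of miR-451a is known for being sliced by Argonaute 2 instead of Dicer. miR-486 is made from within Ank1, the gene of ankyrin 1, a protein that anchors the red cell membrane skeleton, and it is also known from muscle. In whole liver, fewer cells of a type and less RNA per cell cannot be told apart.

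The mature sequences, from RefSeq on GRCm38.p6, are shown because the 3 products of the transcript of miR-144 and miR-451a carry different seeds. The seed, bases 2 to 8 from the 5′ end, is in capitals.
miR-144-5p: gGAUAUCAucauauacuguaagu
miR-144-3p: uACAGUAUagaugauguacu
miR-451a: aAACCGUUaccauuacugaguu
miR-451b: uGGGAGCAgcaagagaaccgu
miR-101a-3p: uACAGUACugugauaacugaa
Of the 5 erythroid entries, 3 were matched to a mature sequence in the RefSeq table. None of the other mature miRs among its 1679 entries had the same bases 2 to 8 as miR-144-5p, miR-144-3p or miR-451a. miR-101a-3p shared bases 2 to 7 with miR-144-3p, and the first base at which they differ, counted from the 5′ end, is U8C.

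The hairpins are shown with their mature parts in capitals, because they differ in form.
Mir144: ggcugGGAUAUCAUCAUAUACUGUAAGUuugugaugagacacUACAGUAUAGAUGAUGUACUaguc
Mir451a: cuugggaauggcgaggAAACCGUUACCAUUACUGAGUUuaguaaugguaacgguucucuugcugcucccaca
In Mir144 the arms are 14 bases apart, and each gives a mature miR. In Mir451a the longest perfect stem is 16 bases, it pairs bases 2 to 17 of miR-451a, and the last 5 bases of this 22-base miR run past the stem into the loop of 6 unpaired bases. The mature miR thus spans most of 1 side of the hairpin and its turn.

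Both hairpins lie on the plus strand of chromosome 11 in GRCm38, Mir144 at chr11:78073005-78073070 and Mir451a at chr11:78073170-78073241, with 99 bases between them. The annotation places neither within another gene's body apart from Mir451b, and the nearest gene end, that of Eral1 on the other strand, is 134 bases from Mir451a. Mir451b is annotated at the very coordinates of Mir451a on the minus strand. Its mature product, miR-451b, had 0 counts in 12 of 12 libraries, where the floor of 3 counts is 2.48 to 4.55 CPM of the plain library total, without TMM. miR-451b was thus not detected at this depth, and other products of the minus strand were not examined.

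Mir486 is at chr8:23142555-23142682 on the plus strand, inside Ank1 (chr8:22974844-23150497, plus strand). Of the Ank1 transcripts, 15 span the hairpin and 0 have an exon on it, so it is intronic. All 90 bases of the minus-strand gene Mir3107 (chr8:23142573-23142662) lie inside Mir486, and the combined entry for miR-486a and miR-486b cannot say which strand its reads came from.

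The erythroid miRs were abundant in these livers and kept a fixed order. Together they took 2.55% to 3.63% of each library's reads, with a mean of 2.81% ± 0.271 (SD, n = 5) in the WT fetuses, beside 3.13% ± 0.342 (SD, n = 7) in the Mir483Pat-KO fetuses. By mean CPM over the 12 libraries, among the 388 miRs tested, miR-486-5p ranked 12, miR-451a 24, miR-144-3p 39, miR-144-5p 54 and miR-486-3p 229. Levels of different miRs are in CPM, not in molecules, and the capture of each sequence in library preparation also enters them.

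The order held within each library. The lowest ratio of miR-486-5p to miR-451a counts was 1.52, the lowest of miR-451a to miR-144-3p was 1.88, and the lowest of miR-144-3p to miR-144-5p was 1.79. miR-486-3p lay far under the other 4 entries, with 33 to 74 counts per library against at least 1008 for miR-144-5p. No 2 neighbours in the order changed places in any fetus.

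miR-486-5p, the major arm of miR-486, had the highest level. In WT its TMM-normalised level (counts scaled by the trimmed mean of M-values, in CPM) was 17624, 11965, 13762, 15183 and 12296 CPM in replicates 1 to 5. In Mir483Pat-KO it ranged from 14221 to 19745 CPM with a median of 16890. The groups overlapped: WT replicate 1 was above all but 1 of the Mir483Pat-KO fetuses, while the other WT fetuses lay in the lower part of the range.

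Its mean was 14166 ± 2318 CPM (SD, n = 5) in the WT fetuses, beside 16888 ± 1704 CPM (SD, n = 7) in the Mir483Pat-KO fetuses, a log2 fold change of 0.25 with an SE of 0.095 and a 95% interval of 0.052 to 0.45. The unadjusted p was 0.0168 and the adjusted p 0.185 in edgeR's quasi-likelihood test with Benjamini-Hochberg adjustment. Without WT replicate 1 the log2 fold change was 0.34 and edgeR's adjusted p was 0.0480, and over all 12 fits that leave out 1 fetus the adjusted p ran from 0.0480 to 0.413. The call for miR-486-5p thus turned on 1 WT library.

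miR-486-3p, the minor arm of miR-486, was measured at low depth. Its level in WT was 62.7, 34.0, 67.2, 79.1 and 43.3 CPM in replicates 1 to 5, and in Mir483Pat-KO it ranged from 52.0 to 92.2 CPM with a median of 62.5. The groups overlapped over most of their range. Means were 57.2 ± 18.3 CPM (SD, n = 5) and 66.1 ± 13.8 CPM (SD, n = 7), with a log2 fold change of 0.21 (SE 0.20, 95% interval -0.22 to 0.64) and an adjusted p of 0.675 by edgeR.

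miR-451a, known to protect red cells against oxidative stress, was nearly level among WT fetuses. It stood at 8766, 7849, 8103, 8618 and 7746 CPM in WT replicates 1 to 5, a highest-to-lowest ratio of 1.13, and at 6965 to 10709 CPM in Mir483Pat-KO, with a median of 9354. Of the 7 Mir483Pat-KO fetuses, 5 were above every WT fetus and 1 was below every WT fetus. The means were 8216 ± 456 CPM (SD, n = 5) and 9000 ± 1232 CPM (SD, n = 7). The log2 fold change was 0.13 (SE 0.087, 95% interval -0.054 to 0.32), with an adjusted p of 0.480 by edgeR.

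miR-144-3p, the main arm of Mir144, had a wide range among WT fetuses. Its WT levels were 3729, 3081, 2980, 4581 and 2457 CPM in replicates 1 to 5, and its Mir483Pat-KO levels ran from 3267 to 5096 CPM with a median of 4261. WT replicate 4 was among the highest of all 12 fetuses, and only 2 of the 7 Mir483Pat-KO fetuses were above it. Means were 3366 ± 816 CPM (SD, n = 5) and 4262 ± 618 CPM (SD, n = 7), a log2 fold change of 0.34 (SE 0.14, 95% interval 0.053 to 0.63). edgeR gave an unadjusted p of 0.0232 and an adjusted p of 0.191.

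miR-144-5p, the other arm of that hairpin, had WT levels of 1855, 1475, 1664, 1950 and 1349 CPM in replicates 1 to 5. In Mir483Pat-KO it ranged from 1461 to 2260 CPM with a median of 1705. The groups overlapped, with 2 of the 7 Mir483Pat-KO fetuses above every WT fetus. Means were 1659 ± 251 CPM (SD, n = 5) and 1777 ± 265 CPM (SD, n = 7), a log2 fold change of 0.10 (SE 0.11, 95% interval -0.13 to 0.33) with an adjusted p of 0.734 by edgeR.

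**Figure D1:**
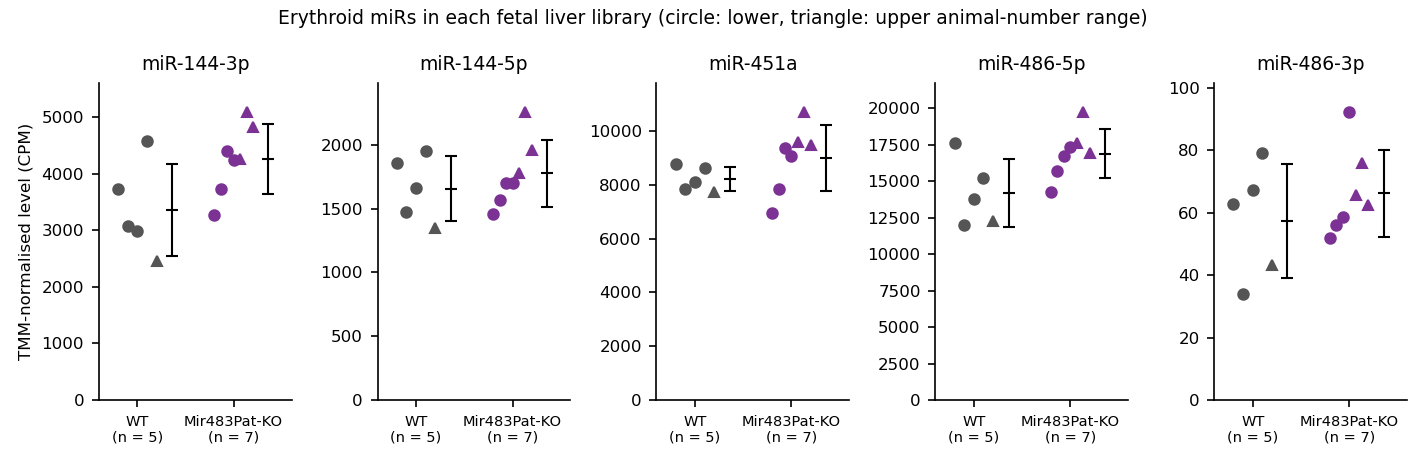
TMM-normalised level in CPM (y axis, from 0) of each erythroid miR in 5 WT and 7 Mir483Pat-KO livers, with 1 point per fetus, the mean and SD as bars, circles for the lower and triangles for the upper range of animal numbers. The groups overlap in all 5 panels, and among Mir483Pat-KO fetuses the triangles lie mostly above the circles.

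None of the 5 erythroid miRs was called between the genotypes at an adjusted p under 0.05 by edgeR, where 2.06% of all 388 miRs tested were called. DESeq2, which called 6.7% of all miRs, and limma-voom also called 0 of the 5. At an unadjusted p under 0.05, 2 of the 5, miR-144-3p and miR-486-5p, were higher in Mir483Pat-KO by each of these 3 tools. In edgeR this count of 2 was 0 without WT replicate 2, 3 or 5, and 1 without Mir483Pat-KO replicate 6 or 7. It was 3 without Mir483Pat-KO replicate 1 and stayed at 2 without each of the other fetuses. The share of all miRs tested at that unadjusted level and higher in Mir483Pat-KO was 9.54%, and in either direction 17.5%. All 5 had positive log2 fold changes, with a median of 0.21 beside 0.0028 over all miRs tested, of which 50.3% were positive. They come from 2 loci, so they are not 5 separate measurements. Genotypes did not overlap for 2.84% of all miRs tested and for none of the erythroid miRs.

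**Figure D2:**
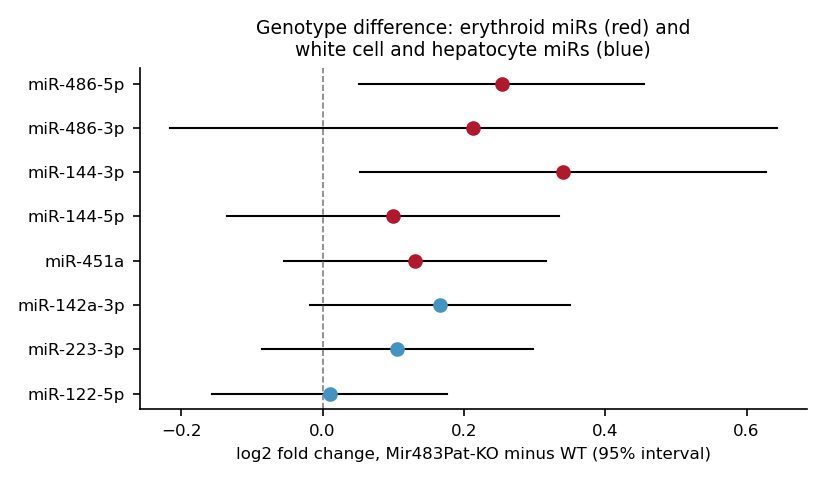
log2 fold change of Mir483Pat-KO against WT (x axis) with its 95% interval from the edgeR fit, for the 5 erythroid miRs in red and for miR-142a-3p, miR-223-3p and miR-122-5p in blue. The intervals of miR-144-3p and miR-486-5p start at 0.053 and 0.052, and those of the other erythroid miRs include 0.

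The labels carry a number for each fetus, called the animal number here although they do not say what it counts. The widest gap between consecutive numbers was used here to set a lower range (4 WT, 4 Mir483Pat-KO) and an upper range (1 WT, 3 Mir483Pat-KO). Each of the 5 miRs had a higher mean in the upper than in the lower range among Mir483Pat-KO fetuses. In Mir483Pat-KO, miR-451a was 6965 to 9354 CPM in the lower range and 9462 to 10709 CPM in the upper range. miR-144-5p was at 1461 to 1705 and 1780 to 2260 CPM, also without overlap. The ranges did overlap for miR-144-3p (3267 to 4399 and 4261 to 5096 CPM), miR-486-5p and miR-486-3p. The share of all miRs without such an overlap was not counted. The WT fetus of the upper range had the lowest WT level of miR-451a, 7746 CPM. Within the lower range alone, the log2 fold change was 0.11 for miR-144-3p, -0.13 for miR-144-5p, -0.020 for miR-451a, 0.11 for miR-486-5p and 0.079 for miR-486-3p. The upper range holds only 1 WT fetus and gives no such test.

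Library index numbers also ran with genotype, since WT libraries carried 37 to 41 and Mir483Pat-KO libraries 42 to 48. Among the latter, 42 to 45 were of the lower animal-number range and 46 to 48 of the upper, so these 2 cannot be told apart there. When this index entered the fit as a covariate, the log2 fold change was 0.00031 for miR-144-3p and -0.20 for miR-451a, beside 0.34 and 0.13 without it. With this covariate the count of erythroid miRs at an unadjusted p under 0.05 was 0 of 5 by edgeR. It was also 0 of 5 in the lower animal-number range alone and with the replicate number as a block. Those last fits also leave out fetuses, and the effect of having fewer was not separated. With the animal-number range as a factor, which keeps all fetuses, the count stayed at 2 of 5. Index order and genotype cannot be told apart in these libraries. Beyond the fits with the range as a factor and in the lower range alone, the part of the animal number in these differences was not tested.

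Ratios between miRs of a single library do not depend on how libraries are scaled. The ratio of miR-144-3p to miR-144-5p counts compares the arms of a hairpin. It was 2.01, 2.09, 1.79, 2.35 and 1.82 in WT replicates 1 to 5 and 2.24 to 2.59 in Mir483Pat-KO, with a median of 2.39. Of the 7 Mir483Pat-KO fetuses, 5 were above every WT fetus.

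The mean log2 ratio was 1.00 ± 0.16 (SD, n = 5) in the WT fetuses, beside 1.26 ± 0.076 (SD, n = 7) in the Mir483Pat-KO fetuses. This difference of 0.26 had a two-sided exact permutation p of 0.00379 over all assignments of 5 of the 12 fetuses to WT and an adjusted p of 0.0152 over the 4 ratios examined. Within the lower animal-number range the difference was 0.24 with an exact p of 0.0571, and with permutation inside each range, an exact test chosen after the data were seen, p was 0.00714.

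Arm ratios differed by genotype at other hairpins too. Of the hairpins whose arms each have an entry of their own, not combined with another miR, 67 had at least 10 counts on both arms in every library, a set that leaves out Mir486 and Mir483. Among these 67, 22.4% had an exact p under 0.05, 9 with the 3p arm higher in Mir483Pat-KO and 6 with it lower. miR-144 ranked 3 by p, with a p of 0.0846 after adjustment over the 67 exact tests, and 0 of the 67 passed at 0.05. So the call over the 4 ratios does not hold when adjusted over these hairpins.

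The ratio of miR-451a to miR-144-3p compares the products of the shared primary transcript. In WT replicates 1 to 5 it was 2.35, 2.55, 2.72, 1.88 and 3.15, and in Mir483Pat-KO it was confined to 1.96 to 2.25 with a median of 2.13. All Mir483Pat-KO values lay inside the WT range. The mean log2 ratio was lower by 0.24 in Mir483Pat-KO (log2 difference -0.24, two-sided exact permutation p of 0.0467, adjusted p of 0.0791 over the 4 ratios). Without WT replicate 4 the difference was -0.34 with an adjusted exact p of 0.00606, and without WT replicate 1 it was -0.26 with 0.0485.

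miR-486-5p exceeded miR-451a by 2.01, 1.52, 1.70, 1.76 and 1.59 times in WT replicates 1 to 5 and by 1.79 to 2.04 times in Mir483Pat-KO, with a median of 1.84. The log2 difference between genotypes was 0.14 (two-sided exact permutation p of 0.0593, adjusted p of 0.0791). Without WT replicate 1, the only WT fetus above 1.76, it was 0.20 with an adjusted exact p of 0.0121.

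The arms of miR-486 were far more unequal than those of miR-144. The ratio of miR-486-5p to miR-486-3p was 281, 352, 205, 192 and 284 in WT replicates 1 to 5 and 188 to 286 in Mir483Pat-KO, with a median of 270.2. The ranges overlapped, with WT replicate 2 above every Mir483Pat-KO fetus and Mir483Pat-KO replicate 4 below every WT fetus. The log2 difference was 0.013 (two-sided exact permutation p of 0.910). Counting error enters here, as miR-486-3p had as few as 33 reads in a library.

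**Figure D3:**
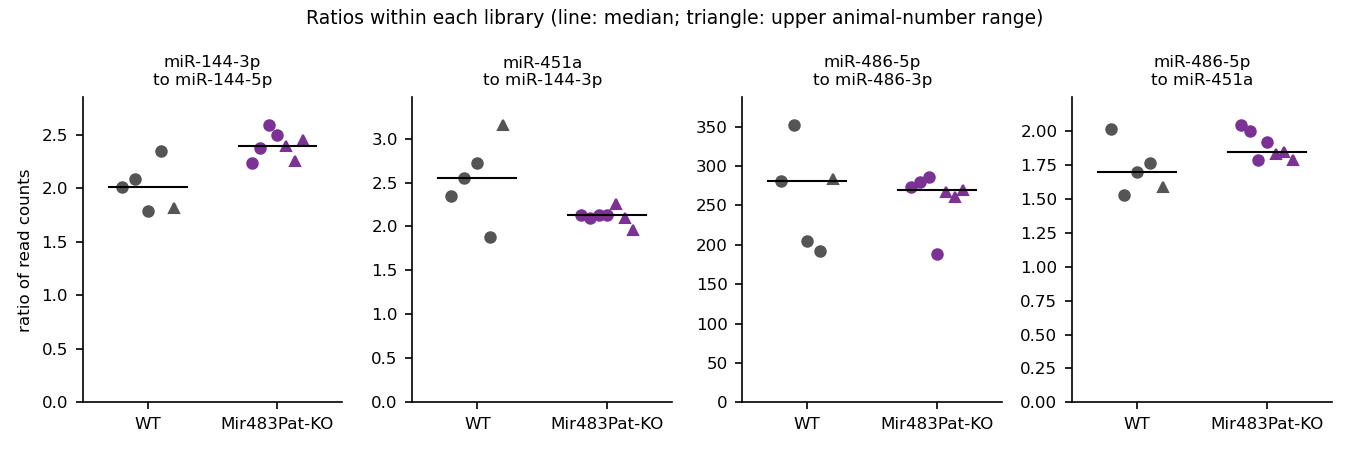
Ratio of read counts within each library (y axis, from 0) for 4 pairs of erythroid miRs in WT and Mir483Pat-KO, with 1 point per fetus, a line at the median, and triangles for the upper animal-number range. For miR-144-3p to miR-144-5p, 5 of the 7 Mir483Pat-KO points are above every WT point, and for miR-451a to miR-144-3p the Mir483Pat-KO points lie inside the WT range.

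The erythroid miRs varied together between fetuses. Mir483Pat-KO replicate 1 had the lowest Mir483Pat-KO level of all 5, and Mir483Pat-KO replicate 6 the highest of all but miR-486-3p. Among WT fetuses, replicate 5 was lowest for miR-144-3p, miR-144-5p and miR-451a, and replicate 2 was lowest for both arms of miR-486.

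Across the 12 fetuses, Pearson's r of log2 CPM was positive for each of the 10 pairs, from 0.577 to 0.864. Of these, 9 had a permutation p of r under 0.05 after adjustment over the 20 pairs examined. Within the transcript of miR-144 and miR-451a, miR-144-3p and miR-144-5p had an r of 0.864 (Spearman's rho 0.853, permutation p of r 0.00024 and of rho 0.00082, adjusted p 0.00213 and 0.00713). miR-144-5p and miR-451a had an r of 0.845 (rho 0.846, permutation p of 0.00062 and 0.00107, adjusted p 0.0031 and 0.00713). Without the 2 fetuses farthest from the median, r was 0.879 for the first pair and 0.766 for the second.

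Pairs from different chromosomes also passed the test. miR-144-3p and miR-486-5p had an r of 0.855 (rho 0.692, permutation p of 0.00032 and 0.0149, adjusted p 0.00213 and 0.0298), and r was 0.783 without the 2 farthest fetuses. miR-451a and miR-486-5p had an r of 0.806 (rho 0.797, permutation p of 0.00132 and 0.00278, adjusted p 0.0044 and 0.0106), and 0.825 without the 2 farthest. The arms of miR-486 had an r of 0.743 (rho 0.587, permutation p of 0.00504 and 0.0488, adjusted p 0.0126 and 0.0698). This r was 0.356 without the 2 farthest fetuses and so rests on them.

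The weakest pair was miR-451a with miR-486-3p, with an r of 0.577 (rho 0.594, permutation p of 0.0481 and 0.0454, adjusted p 0.0687 and 0.0698). The scarce miR-486-3p, whose counting error alone gives an SD of 0.20 on the log2 scale, took part in each of the 4 pairs with the lowest r.

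The pairs were also examined within genotypes, within animal-number ranges and against depth. With genotype means removed, 8 of the 10 pairs passed, and in the 7 Mir483Pat-KO fetuses alone 6 did, with r from 0.502 to 0.963. In the 8 fetuses of the lower animal-number range alone, r ran from 0.529 to 0.722 and 0 of 10 passed after adjustment over the 20 pairs. With the means of the animal-number ranges removed, all 10 passed, an alternative chosen after seeing the data. Log2 CPM of the members had an r of -0.145 to 0.240 with log2 library total, with adjusted permutation p of 0.993 for each.

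Among the 143 miRs whose log2 CPM averaged at least 8, which include the erythroid miRs except miR-486-3p, the 6 pairs of erythroid miRs had a median r of 0.83 and a lowest r of 0.795. Over all 10153 pairs of these 143 miRs the median r was 0.0047, and 1.57% of pairs had an r of 0.795 or more. These points share the same 12 libraries and their scaling, so this is a description.

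**Figure D4:**
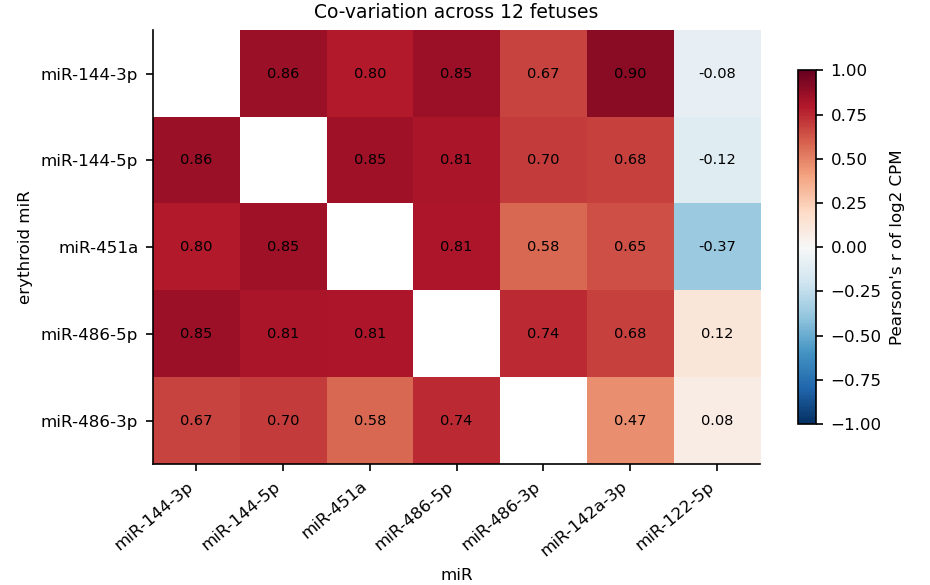
Pearson's r of log2 CPM across the 12 fetuses (colour scale from -1 to 1, value in each cell) for each erythroid miR with the other erythroid miRs, with the white blood cell marker miR-142a-3p and with the hepatocyte marker miR-122-5p. r is 0.577 to 0.864 between erythroid miRs and -0.367 to 0.119 with miR-122-5p.

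Of the white blood cell miRs, only miR-142a-3p was among the pairs tested. Over the 12 fetuses this marker moved with the erythroid miRs other than miR-486-3p. The hepatocyte marker miR-122-5p did not pass the test with any erythroid miR over the 12 fetuses. miR-144-3p and miR-142a-3p had an r of 0.902 (rho 0.888, permutation p of 6e-05 and 0.00032, adjusted p 0.0012 and 0.0064), higher than the r of miR-144-3p with any erythroid miR. With miR-142a-3p, r was 0.682 for miR-144-5p, 0.648 for miR-451a, 0.684 for miR-486-5p and 0.465 for miR-486-3p, of which the first 3 passed and the last had an adjusted permutation p of 0.167. The r of miR-144-5p was 0.457 without the 2 farthest fetuses. In the lower animal-number range, r with miR-142a-3p was 0.849 for miR-144-3p. It was 0.371 there for miR-144-5p, 0.468 for miR-451a, 0.443 for miR-486-5p and 0.263 for miR-486-3p. With miR-122-5p, r was between -0.367 and 0.119, with a lowest adjusted permutation p of 0.299. In the 7 Mir483Pat-KO fetuses alone it was -0.704 for miR-144-3p, -0.634 for miR-144-5p, -0.682 for miR-451a, -0.529 for miR-486-5p and -0.358 for miR-486-3p, with unadjusted exact permutation p from 0.0730 to 0.431. Without the 2 farthest fetuses r was -0.428 to -0.0675.

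Of 7 white blood cell miRs, 4 were tested, 3 had positive log2 fold changes, and 0 were called. Their summed level was 11052 to 14599 CPM in WT and 13128 to 14764 CPM in Mir483Pat-KO. miR-142a-3p was at 1666 ± 249 CPM (SD, n = 5) in the WT fetuses, beside 1869 ± 128 CPM (SD, n = 7) in the Mir483Pat-KO fetuses, and miR-223-3p, a miR of granulocytes and monocytes, at 1431 ± 201 and 1542 ± 134 CPM. The level of miR-223-3p did not follow that of miR-144-3p at the extremes of either genotype. The Mir483Pat-KO fetuses with the lowest and highest miR-144-3p, 3267 and 5096 CPM, had 1633 and 1400 CPM of miR-223-3p. For WT these fetuses had 2457 and 4581 CPM of miR-144-3p, beside 1505 and 1386 CPM of miR-223-3p. The correlation of miR-223-3p with the erythroid miRs was not tested, nor was the part of white blood cells in their values.

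Of the 283 other miRs whose log2 CPM averaged at least 5, those whose pattern over the 12 libraries was closest to miR-144-3p were miR-136-5p (r 0.922), miR-142a-3p (r 0.902) and miR-142a-5p (r 0.851). Closest to miR-451a were miR-92a-3p (r 0.862), miR-30b-3p (r 0.858) and miR-1955-5p (r 0.852). For miR-486-5p they were miR-540-3p (r 0.877), miR-30b-3p (r 0.870) and miR-93-5p (r 0.860). The highest r with another erythroid miR was 0.864 for miR-144-3p, 0.845 for miR-451a and 0.855 for miR-486-5p. Each miR named for miR-451a and for miR-486-5p exceeded this, and so did miR-136-5p and miR-142a-3p for miR-144-3p. Such close patterns were therefore not particular to the erythroid miRs. These r values describe the same 12 libraries, without genotype means removed, and have no test. Between genotypes, miR-136-5p and miR-540-3p had log2 fold changes of 0.48 and 0.31, with unadjusted p of 0.000474 and 0.00421 by edgeR. At an adjusted p under 0.05, edgeR called miR-136-5p but not miR-540-3p. The authors also report the former as upregulated in the knockout. The r of 0.922 was taken with genotype means left in, so it includes the genotype difference of miR-136-5p.

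The miR-144 arms varied more between fetuses than most miRs of high level. The SD of log2 CPM within genotype was 0.27 for miR-144-3p, which ranked 7 among the 143 miRs whose log2 CPM averaged at least 8, and 0.21 for miR-144-5p, which ranked 16. It was 0.18 for miR-486-5p (rank 29) and 0.17 for miR-451a (rank 40), beside a median of 0.14 over the 143. Counting error alone gives an SD of 0.012 to 0.038 for these 4 at their depth. Among WT fetuses the highest level was 1.86 times the lowest for miR-144-3p and 1.13 times for miR-451a, but among the 7 Mir483Pat-KO fetuses these ratios were 1.56 and 1.54.

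**Figure D5:**
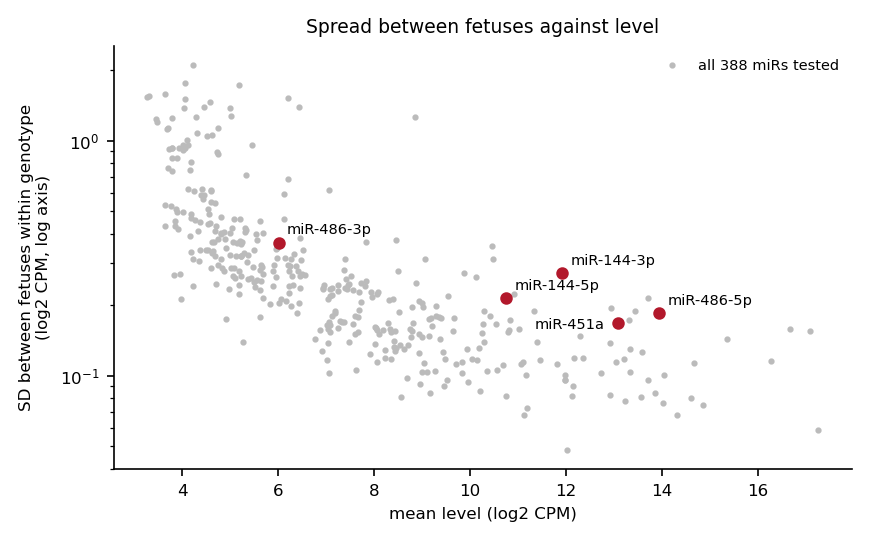
SD of log2 CPM between fetuses within genotype (y axis, log scale) against mean log2 CPM (x axis) for all 388 miRs tested in grey and the 5 erythroid miRs in red. miR-144-3p (0.27) and miR-144-5p (0.21) lie above most miRs of their level, and miR-486-3p (0.37) lies at a lower level where SDs are larger.

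Other miRs known to be abundant in red cells had log2 fold changes of both signs. Of 18 listed, such as the miR-15/16 and miR-17/92 families, 16 were tested, 7 had positive and 9 negative log2 fold changes, and 0 were called. The median log2 fold change was -0.0063, and at an unadjusted p under 0.05 by edgeR there were 3 higher and 2 lower. Over all miRs tested, 17.5% reached that level in either direction and 9.54% were higher in Mir483Pat-KO. The lowest p belonged to miR-103-3p/miR-107-3p (log2 fold change 0.19, adjusted p 0.0628 by edgeR) and miR-15a-5p, a repressor of cell-cycle mRNAs (0.29, adjusted p 0.0988). Of 10 miRs linked to red cell maturation, 8 were tested, 3 had positive and 5 negative log2 fold changes, 0 were called, and the median was -0.031. At an unadjusted p under 0.05 by edgeR, 0 of them were higher and 2 lower. The lowest p there were those of the hypoxia-induced miR-210-3p (-0.25, adjusted p 0.253) and miR-23a-3p/miR-23b-3p (-0.19, adjusted p 0.275).

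Markers of the liver's other cells were also without a call. All 4 hepatocyte miRs were tested, 2 had positive and 2 negative log2 fold changes, and the median was -0.021. miR-122-5p, the main miR of hepatocytes, was at 139392 ± 13308 CPM (SD, n = 5) in the WT fetuses, beside 140351 ± 16687 CPM (SD, n = 7) in the Mir483Pat-KO fetuses, a log2 fold change of 0.0099. The median log2 fold change was -0.19 for 2 endothelial, -0.073 for 3 stellate cell, -0.13 for 2 smooth muscle and 0.12 for 5 biliary miRs. No adjusted p by edgeR was under 0.0892 in these lists. For the 2 miRs with the lowest p of each list, log2 fold changes had both signs in the hepatocyte, stellate cell and biliary lists. In the endothelial and smooth muscle lists both were negative. These changes were -0.11 for miR-194-5p and 0.068 for miR-192-5p in hepatocytes, -0.26 for miR-126a-5p and -0.11 for miR-126a-3p in endothelium, and -0.25 for miR-145a-5p and -0.0056 for miR-143-3p in smooth muscle. In the stellate cell list they were 0.47 for miR-199a-3p/miR-199b-3p and -0.32 for miR-214-3p, and in the biliary list 0.39 for miR-200a-3p and -0.29 for miR-429-3p.

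miR-101a-3p, which shares bases 2 to 7 of miR-144-3p, has no entry of its own. The entry that combines it with miR-101b-3p and miR-101c was at 17010 ± 1731 CPM (SD, n = 5) in the WT fetuses, beside 16808 ± 566 CPM (SD, n = 7) in the Mir483Pat-KO fetuses, a log2 fold change of -0.017 (adjusted p 0.916 by edgeR). It was chosen for its sequence after the members were set.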

How the data were processed

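The authors made libraries with the TruSeq Small RNA kit from total RNA, sequenced them on a NovaSeq6000 and counted reads per mature miR with miRge 3.0 (submitters' notes, which also name GRCm38). The miR reference used is not given in the sources used here. The deposited values are raw counts, whole numbers of 0 or of 2 and more, 1 column per fetus, with no replicates pooled. Columns were assigned by the number in their name, which the labels repeat, and groups by genotype label.

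From the counts, edgeR 4.0.16 (R 4.3.3) kept 388 miRs by filterByExpr (minimum count 10, minimum total 15), scaled by TMM and compared genotypes with glmQLFit (legacy = TRUE) and glmQLFTest, genotype alone in the design, with Benjamini-Hochberg adjustment over all miRs tested. Ratios (pseudocount 0.5) were compared by two-sided exact permutation over all assignments of 12 fetuses to groups of 5 and 7. Correlations used log2 CPM (prior count 2) and 100000 permutations, or exact permutation below 10 fetuses. Floors and intervals of counts cover counting error only. No library was found deposited more than once. Alternatives were other scalings and filters, DESeq2 1.42.0, limma-voom (limma 3.58.1), blocks and covariates, and leaving out each fetus. The code was tested on simulated data.

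The erythroid miRs and all lists were chosen with earlier results of these data known. Named miRs are the 5 erythroid miRs, per list the 2 with the lowest p (or those called), the 3 closest patterns to miR-144-3p, miR-451a and miR-486-5p, miR-451b, the markers miR-122-5p, miR-142a-3p and miR-223-3p, and miR-483. miR-101a-3p was named outside this rule, for its sequence. Positions are from GENCODE's GRCm38 annotation. The mRNA libraries were not analysed here.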

Additional observations from a re-analysis of the deposited data

Results flagged for a closer look

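In Mir483Pat-KO replicate 4 the ratio of miR-486-5p to miR-486-3p was 188, apart from the other 6 Mir483Pat-KO fetuses, which lay between 260.4 and 286. Its gap to the nearest fetus was 0.739 of the range of the group. The miR-486-3p count behind it was 68 reads, or 92.2 CPM, the highest level of this arm in any fetus. Among the 18 groups of values examined in this way, chance sets about 1 in 20 apart.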

How the results depend on the processing

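The replicate numbers that the genotypes share did not pair the fetuses: same-numbered fetuses correlated at -0.24 to 0.23, and only WT replicate 5 correlated best with its own number. With the replicate number as a block, the log2 fold change was -0.025 for miR-144-5p, the log2 difference was -0.0021 for the miR-486-5p to miR-486-3p ratio, and that of miR-144-3p to miR-144-5p was 0.27 (exact p 0.0625, the smallest that 5 pairs allow). This fit holds replicates 1 to 5 only, so it also drops Mir483Pat-KO replicates 6 and 7, and the 2 changes were not separated. It called 3 of 376 miRs, beside 8 of 388 in all fetuses. DESeq2 called 26 and leaving out a fetus 3 to 12.

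The miR-144-3p to miR-144-5p difference had an adjusted exact p above 0.05 as a difference of medians (0.25, adjusted p 0.0505) and in the lower animal-number range alone (0.24), and leaving out a fetus gave 0.22 to 0.32. Leaving out a fetus gave -0.34 to -0.15 for miR-451a to miR-144-3p, -0.090 to 0.13 for miR-486-5p to miR-486-3p (-0.063 by medians) and 0.10 to 0.20 for miR-486-5p to miR-451a (0.34, SE 0.11, with the index covariate). With the index covariate the log2 fold changes of miR-144-5p, miR-451a and miR-486-3p were -0.22, -0.20 and -0.096, and in the lower range those of miR-144-5p and miR-451a were -0.13 and -0.020. Leaving out a fetus gave log2 fold changes of 0.18 to 0.34 for miR-486-5p, 0.25 to 0.47 for miR-144-3p, 0.030 to 0.16 for miR-144-5p, 0.083 to 0.17 for miR-451a and 0.051 to 0.35 for miR-486-3p, and 0 to 1 erythroid miRs called. Correlated pairs numbered 0 in the lower range and 6 to 9 without a fetus, 6 without WT replicate 5. The causes were not tested. Depth limits miR-486-3p, with 33 to 74 reads per library.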
